A study of Mus musculus with 6 samples.

Results

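The Bcl-2 family of apoptosis regulators was examined in NIH3T3 cells, which are immortalised fibroblasts from mouse embryos, through 10 genes, Bmf, Bcl2l11, Bbc3, Pmaip1, Bid, Bad, Bax, Bcl2, Bcl2l1 and Mcl1. All 10 were found by name among the 21878 genes of the deposited table. The family was chosen by the FPKM values of Bmf, which was among the genes with the largest rise, so Bmf is given as a description and without a test. The other 9 entered by gene name as members of the family, in a set put together with results of these data known. The series compared 3 RNA-seq libraries of cells treated with exosomes with 3 libraries of cells given phosphate-buffered saline (PBS). Both groups carried the label of a radiation injury and a time point of 72 h, so irradiation is shared by the controls. The series title calls the exosomes plasma-derived and names proliferation and ferroptosis as the processes of interest. The labels state neither a radiation dose nor the species or amount of the exosomes, and they do not say whether cultures were separate, so p-values cover only how far these libraries differ within a group, which could be technical variation.

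Proteins of the Bcl-2 family decide whether the outer membrane of mitochondria is breached during apoptosis. Anti-apoptotic members such as Bcl-2, Bcl-xL and Mcl-1 hold the pore-forming effectors Bax and Bak in check. BH3-only members, which share with the rest of the family only a short BH3 helix, bind the anti-apoptotic proteins or switch on the effectors. In fibroblasts and other adherent cells Bim and Bmf are known for responses to loss of attachment and of growth factors, and Puma and Noxa for the response to DNA damage through p53. Most of these proteins are also controlled after transcription, so an mRNA level is not a protein level, and the gene-level values used here do not separate splice forms of opposite function such as those of Bcl2l1 and Mcl1.

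Depth was estimated at 18800000 to 22000000 counted reads per library (group total of normalized counts times each size factor), and 10080 to 10271 genes reached 1 FPKM (fragments per kilobase of transcript, scaled to the mapped fragments of the library) in each. Of 16 fibroblast markers 15 reached 1 FPKM in every library, and they summed to 6700 to 7140 FPKM with PBS and 8030 to 8310 with exosomes. These markers did not all move with their sum. At an unadjusted p under 0.05 the limma test described below gave 10 raised and 3 lowered. Of 15 leukocyte markers 2, Cd14 and Cd68, reached 1 FPKM in every library, and Tyrobp, Cd3e and Spi1 were listed at 0 in all 6. Their sum was 7.54 to 12.1 FPKM with PBS and 4.51 to 5.37 with exosomes, and its part in the results below was not tested. None of 12 epithelial and endothelial markers and 1 of 11 listed platelet and erythroid markers, Itga2b, reached 1 FPKM in every library. In bulk RNA, fewer cells of a kind and less RNA per cell cannot be told apart.

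Among the members, transcripts of the BH3-only genes Bmf and Bcl2l11 stood higher with exosomes, while those of the anti-apoptotic genes Bcl2l1 and Mcl1, the effector gene Bax and the BH3-only gene Bid fell. Bad, Bcl2 and Bbc3 did not pass the test, and Pmaip1 was too low to be tested. The limma test on log2(FPKM + 1) took in genes that reached 1 FPKM in 3 libraries or more, and 9 of the 10 members passed that filter, Bbc3 in 2 PBS and 3 exosome libraries and the others in all 6. Of the 8 tested members other than Bmf, 1 was raised and 4 were lowered at an adjusted p under 0.05. Over all 10274 genes tested 43.8% were called, 25.4% raised and 18.4% lowered. A second member, Bbc3, was raised when PBS replicate 2 was left out. Calls with mean FPKM at least 1.5-fold apart made up 8.08% of all genes tested and 2 of these 8 members, Bcl2l11 and Bcl2l1. Mcl1 was just under that cut, 1.49-fold lower by FPKM and 1.53-fold lower in the authors' deposited table. At an adjusted p under 0.05 the authors' deposited table, which was made from counts, calls 4106 genes, against 4501 by limma. They are 25.9% of the 15844 genes with an adjusted p there, 12.4% raised and 13.5% lowered. No FPKM filter was applied to those, so this share and that of limma have unlike denominators. Of the 9 members other than Bmf the authors' table lists the same numbers as limma, 1 raised and 4 lowered. The median log2 change of the 8 members was −0.12, against 0.04 for all genes tested. A change on the log2(FPKM + 1) scale understates that of genes with low values, and it is given below as exosomes minus PBS ± standard error (SE), with FPKM as mean ± SD (n = 3 libraries per group).

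**Figure D1:**
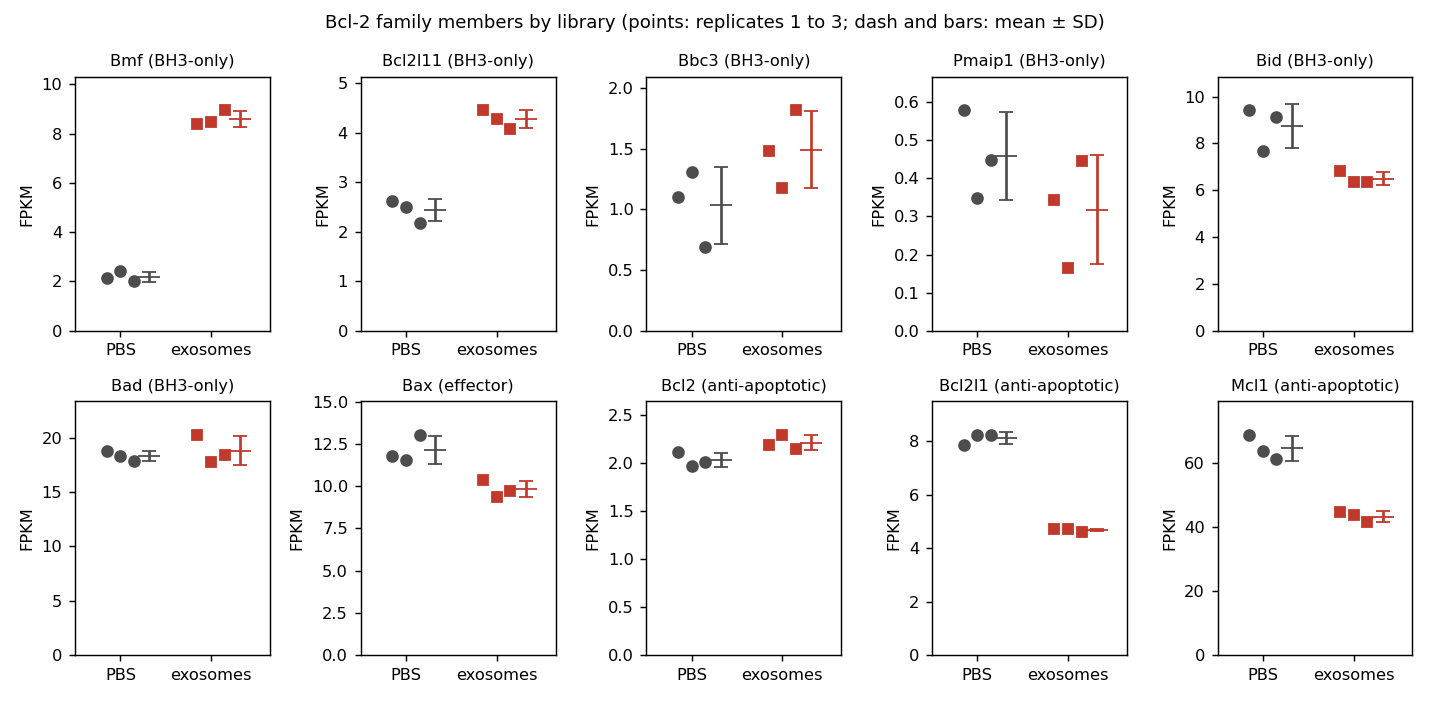
FPKM of each member (vertical axes, each starting at 0) in the 3 PBS libraries (grey circles) and the 3 exosome libraries (red squares), with the mean and SD of each group at the side. The 3 exosome values of Bmf lie between 8.38 and 8.96 and the 3 PBS values between 2.01 and 2.42, whereas the groups overlap for Bbc3, Pmaip1 and Bad.

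Bmf encodes a BH3-only protein that is held at the myosin V motor complex through a dynein light chain and released when cells detach. In the order of replicates 1 to 3, it was listed at 2.14, 2.42 and 2.01 FPKM with PBS and at 8.38, 8.46 and 8.96 with exosomes. The exosome values were close to each other and far above all PBS values. The means were 8.60 ± 0.311 and 2.19 ± 0.212 FPKM, a ratio of 3.93, and the log2 change of 1.59 was the rise of rank 4 among the 10274 genes. In the authors' deposited table the mean normalized count of Bmf is 1111 with exosomes and 295.8 with PBS, a 3.76-fold difference.

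Bcl2l11 encodes Bim, a BH3-only protein that binds every anti-apoptotic member and can activate Bax. Its FPKM was 2.61, 2.50 and 2.18 with PBS and 4.45, 4.29 and 4.08 with exosomes. Each exosome library exceeded each PBS library, as the groups did, in either direction, for 55.6% of all genes tested. Bcl2l11 rose from 2.43 ± 0.223 to 4.27 ± 0.188 FPKM (log2 change 0.62 ± 0.07, limma adjusted p = 0.000141). By the authors' deposited table it was 1.75-fold higher (adjusted p = 4.40e-20). The rise of Bcl2l11 had rank 203 among the genes tested.

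Promoter sequences of the pair of BH3-only genes that stood higher are shown, 1 window for each gene. The Bcl2l11 window was picked because it holds the match marked below, and the Bmf window as the one at the highest position of its 3. The windows were taken by symbol from RefSeq on GRCm38.p6. They are the 250 bases before a transcription start, 5′ to 3′ on the strand of the gene. The labels name mm9 for the deposited values, so these positions refer to the reference only. Of the members 9 matched, with 17 windows, while Pmaip1 had no entry. Capitals mark a match to GTAAACA, the core of the site bound by FOXO transcription factors, which are known activators of Bcl2l11 and Bbc3 and are restrained by growth factor signalling.
Bmf, chr2:118549687-118549936, minus strand: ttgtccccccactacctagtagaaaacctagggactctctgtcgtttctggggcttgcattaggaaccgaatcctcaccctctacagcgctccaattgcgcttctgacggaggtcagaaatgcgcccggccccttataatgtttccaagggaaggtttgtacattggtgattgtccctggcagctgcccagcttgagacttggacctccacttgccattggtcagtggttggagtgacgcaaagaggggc
Bcl2l11, chr2:128125788-128126037, plus strand: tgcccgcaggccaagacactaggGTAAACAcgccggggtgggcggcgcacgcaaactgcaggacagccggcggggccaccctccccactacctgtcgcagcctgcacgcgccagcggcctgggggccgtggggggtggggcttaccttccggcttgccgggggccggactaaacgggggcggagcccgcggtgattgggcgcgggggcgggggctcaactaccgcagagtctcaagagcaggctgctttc
The Bmf window held 54.0% G and C and 8 CG dinucleotides, and the Bcl2l11 window 72.0% and 24, against a median of 52.4% and 6 over 32851 promoter windows of the same length in RefSeq. The GTAAACA match (either strand) lay 227 bases before 1 Bcl2l11 start. The window of the other Bcl2l11 start, with 73.2% G and C, held no match. The only other member window with a match belonged to Bbc3, where the match began 167 bases before a start. That RefSeq start did not match the start of a Bbc3 transcript in the GENCODE annotation. The Bbc3 window whose start did match held no GTAAACA.
Bcl2l11, chr2:128125801-128125827, plus strand: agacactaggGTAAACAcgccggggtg
Bbc3, chr7:16310084-16310110, plus strand: ctggcgggttTGTTTACaaacaatggg
On the gene strand the Bbc3 match reads as the reverse complement, TGTTTAC. These letters were present in 2 of 17 member windows and in 3.17% of all windows, and in none of the 3 Bmf windows. The Sp1 core GGGCGG was present in 10 of 17 member windows, against 32.7% of all windows, but in none of those of Bmf or Bcl2l1. This core is all G and C, and the member windows held a median of 63.6% G and C, against 52.4%. The part of base composition in that share was not tested. The E-box CACGTG was present in 2, in 1 window of Bbc3 and in that of Bax, where it began 9 bases before the start, against 6.02% of all windows. The AP-1 site TGANTCA (6.75% of all windows), the STAT site TTCNNNGAA (7.02%), TATAAA (12.4%), the CRE TGACGTCA (1.55%) and the NF-kB consensus (0.14%) were in no member window. Windows of 1 gene can overlap each other, a match is a description of these letters, and no binding was measured.

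Bbc3 and Pmaip1 encode Puma and Noxa, BH3-only proteins known as p53 targets, and they were the least abundant members. Bbc3 was listed at 1.10, 1.31 and 0.688 FPKM with PBS and at 1.48, 1.18 and 1.82 with exosomes. The groups overlapped, and its log2 change of 0.30 ± 0.13 (95% interval 0.01 to 0.59) did not pass (limma adjusted p = 0.0898), while without PBS replicate 2 it did (0.39, limma adjusted p = 0.0364, in a range of 0.0364 to 0.449 over all alternatives). The reads behind these values could be worked out, because a deposited group mean averages whole reads divided by the size factors of 3 libraries, and those factors could be solved from low values. Bbc3 rested on 85, 125 and 60 reads with PBS and on 120, 115 and 138 with exosomes. PBS replicate 3 was the lowest library by reads as by FPKM. The authors' deposited table gives Bbc3 an adjusted p of 0.449.

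Pmaip1 was listed at 0.580, 0.350 and 0.447 FPKM with PBS and at 0.344, 0.165 and 0.446 with exosomes, under 1 FPKM in every library. It rested on 35, 20 and 25 reads with PBS and on 20, 11 and 29 with exosomes. The groups overlapped, and without the filter on low values its log2 change was −0.15 ± 0.09, with a 95% interval of −0.37 to 0.07 (limma adjusted p = 0.286). In the authors' deposited table its log2 fold is −0.52 (adjusted p = 0.438).

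Of Bid and Bad, the BH3-only genes with the highest levels with PBS, Bid fell and Bad did not pass. Bid encodes a protein that caspase-8 cleaves, linking death receptors to mitochondria. It was at 9.42, 7.67 and 9.13 FPKM with PBS and at 6.83, 6.34 and 6.33 with exosomes. All exosome libraries were below all PBS libraries, and Bid fell from 8.74 ± 0.940 to 6.50 ± 0.284 FPKM (log2 change −0.37 ± 0.07, limma adjusted p = 0.00335). Bad encodes a protein that survival kinases phosphorylate and that 14-3-3 proteins then keep in the cytosol. It was at 18.7, 18.3 and 17.9 FPKM with PBS and at 20.3, 17.7 and 18.4 with exosomes. Those ranges overlapped, and its log2 change was 0.03 ± 0.06 with a 95% interval of −0.09 to 0.16 (limma adjusted p = 0.641). Its sign turned in the authors' deposited table, where the log2 fold is −0.02.

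Bax encodes an effector that forms pores in the outer mitochondrial membrane. It was at 11.8, 11.6 and 13.1 FPKM with PBS and at 10.3, 9.38 and 9.71 with exosomes. The groups did not overlap, and Bax fell from 12.1 ± 0.803 to 9.81 ± 0.483 FPKM (log2 change −0.28 ± 0.06, limma adjusted p = 0.00485). In the authors' deposited table its mean normalized count fell from 1299 to 976.2 (adjusted p = 9.04e-07). Bak1, which encodes the other main effector and is no member of the set, was at 23.7 ± 0.865 with PBS and 23.3 ± 0.548 with exosomes (log2 change −0.02 ± 0.05, 95% interval −0.13 to 0.08, limma adjusted p = 0.711). Summed over Bax and Bak1 the level was 35.6, 36.1 and 35.9 FPKM with PBS and 34.3, 32.4 and 32.8 with exosomes.

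Of the 3 anti-apoptotic members Bcl2l1 and Mcl1 fell and Bcl2 did not pass. Bcl2l1 encodes Bcl-xL in its long form. It was at 7.86, 8.23 and 8.25 FPKM with PBS and at 4.70, 4.71 and 4.62 with exosomes. The exosome libraries lay within 0.1 FPKM of each other, and Bcl2l1 fell from 8.11 ± 0.222 to 4.68 ± 0.0512 FPKM, 42.4% lower (log2 change −0.68 ± 0.05, limma adjusted p = 1.22e-05). By the authors' deposited table it was 1.82-fold lower (adjusted p = 2.14e-28).

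Mcl1 encodes Mcl-1, an anti-apoptotic protein with a short life in the cell. It was at 68.8, 63.5 and 61.1 FPKM with PBS and at 44.5, 43.6 and 41.4 with exosomes. The lowest PBS library was well above the highest exosome library, and Mcl1 fell from 64.5 ± 3.95 to 43.2 ± 1.62 FPKM, 33.1% lower (log2 change −0.57 ± 0.05, limma adjusted p = 5.40e-05). By the authors' deposited table it was 1.53-fold lower (adjusted p = 1.01e-19).

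Bcl2, the founding member, was at 2.11, 1.97 and 2.01 FPKM with PBS and at 2.19, 2.29 and 2.15 with exosomes. The exosome values were slightly higher and did not overlap the PBS values, but its log2 change of 0.08 ± 0.06 (95% interval −0.06 to 0.22) did not pass (limma adjusted p = 0.302). Bcl2l2, which encodes the anti-apoptotic Bcl-w, was at 5.98 ± 0.191 with PBS and 5.96 ± 0.196 with exosomes, with a 95% interval of −0.12 to 0.12 for its log2 change (limma adjusted p = 0.964). Bcl2a1a, Bcl2a1b and Bcl2a1d, the mouse A1 genes, which are near-identical copies known from blood cells, were listed at 0 in all 6 libraries.

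**Figure D2:**
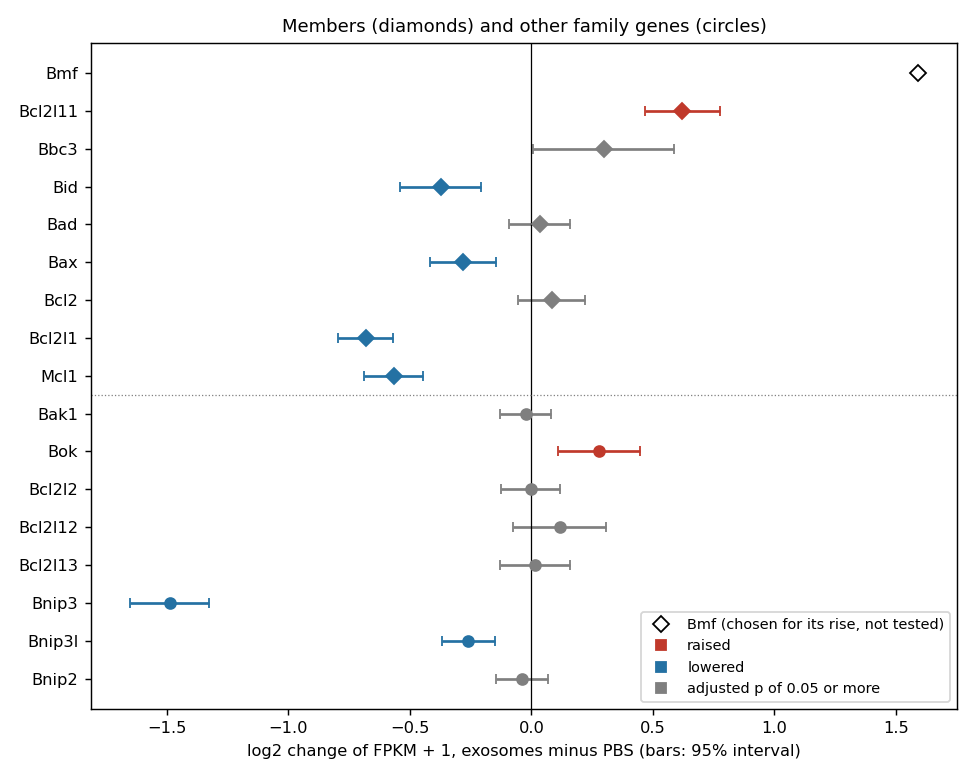
Log2 change of FPKM + 1, exosomes minus PBS (horizontal axis), for the 9 members that passed the filter (diamonds, above the dotted line) and 8 other Bcl-2 family genes that did (circles). Bars are 95% intervals; Bmf has none because it was chosen for its rise. Bcl2l11 lies at 0.62 and Bcl2l1 at −0.68, while the intervals of Bad, Bcl2, Bak1 and Bcl2l2 include 0.

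On the FPKM scale, which is per length, Mcl1 was the most abundant member in both groups and Pmaip1 the least. With PBS the order of mean levels was Mcl1 at 64.5, Bad at 18.3, Bax at 12.1, Bid at 8.74, Bcl2l1 at 8.11, Bcl2l11 at 2.43, Bmf at 2.19, Bcl2 at 2.03, Bbc3 at 1.03 and Pmaip1 at 0.459 FPKM. Bid and Bcl2l1, Bcl2l11 and Bmf, and Bmf and Bcl2 had overlapping ranges, which do not put them in order. Library by library, Bcl2l11 was above Bmf and Bmf above Bcl2 with PBS, Bmf only slightly so in replicates 1 and 3. Bid was above Bcl2l1 in PBS replicates 1 and 3 and below it in replicate 2. With exosomes the order was Mcl1 at 43.2, Bad at 18.8, Bax at 9.81, Bmf at 8.60, Bid at 6.50, Bcl2l1 at 4.68, Bcl2l11 at 4.27, Bcl2 at 2.21, Bbc3 at 1.49 and Pmaip1 at 0.318 FPKM. There no neighbours had overlapping ranges, and Bmf had moved from position 7 to position 4, above Bid and Bcl2l1. With PBS the coefficient of variation between replicates ran from 2.33% for Bad to 30.6% for Bbc3. With exosomes it ran from 1.09% for Bcl2l1 to 44.7% for Pmaip1.

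The sum of the 10 members was 125.2, 118 and 117 FPKM with PBS and 104, 98.2 and 97.9 with exosomes. Mcl1 made up 53.7% ± 1.34 of it with PBS and 43.2% ± 1.10 with exosomes. Bmf made up 1.83% ± 0.197 and 8.62% ± 0.528. The 3 anti-apoptotic members summed to 74.6 ± 3.80 FPKM with PBS and 50.05 ± 1.70 with exosomes, and Mcl1 took 86.4% and 86.2% of that sum. Bmf and Bcl2l11 together were at 4.75, 4.92 and 4.19 FPKM with PBS and at 12.8, 12.7 and 13.0 with exosomes. The other 4 BH3-only members summed to 28.5 ± 1.16 and 27.1 ± 1.77 FPKM, with overlapping ranges. For every 100 FPKM of the anti-apoptotic members there were 44.5 ± 0.768 FPKM of BH3-only members with PBS and 79.9 ± 4.05 with exosomes. These sums include Bmf and are given as a description, and they weigh mRNAs of proteins that differ in potency alike.

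**Figure D3:**
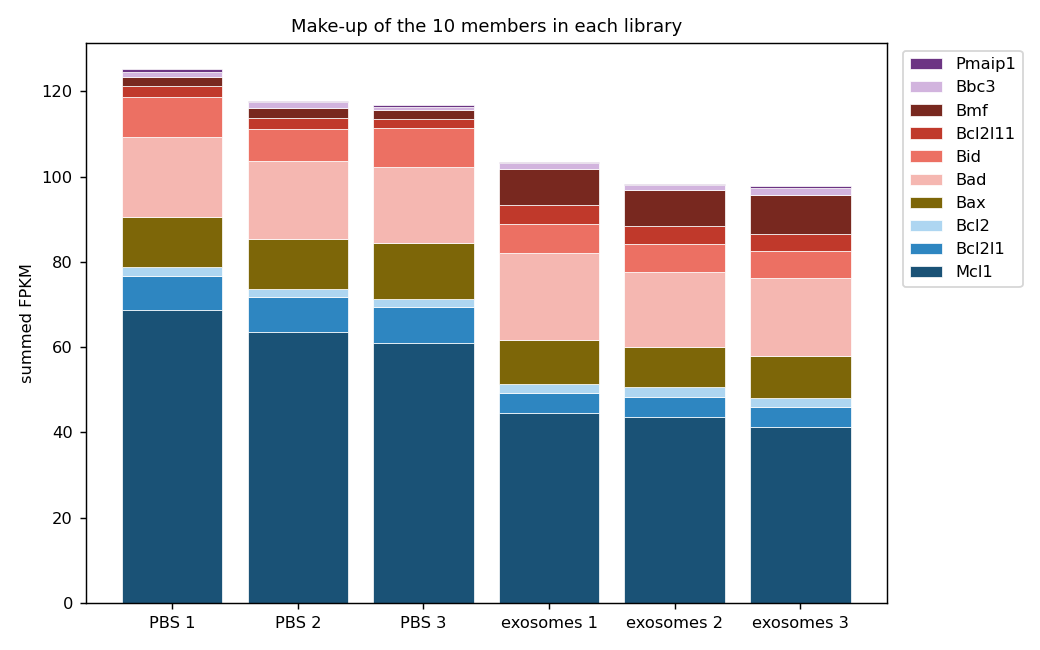
Summed FPKM of the 10 members (vertical axis) in each library, stacked by gene with the anti-apoptotic genes in blue at the base, Bax in olive and the BH3-only genes in red and purple above. The total is 117 to 125.2 with PBS and 97.9 to 104 with exosomes, with a shorter Mcl1 block and a taller Bmf block in all 3 exosome libraries.

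Overlapping genes can share reads, and the strand setting of the counting is not stated in the labels. In the RefSeq annotation Bmf, Bbc3, Pmaip1, Bax and Mcl1 overlap no other gene, and the other 5 members do. Acoxl, which overlaps Bcl2l11, was at no more than 0.0142 FPKM, and Cox4i2, which overlaps Bcl2l1, at no more than 0.0202 FPKM, in any library. Gpr137, which overlaps Bad, was at 5.52 ± 0.400 FPKM with PBS and 6.92 ± 0.167 with exosomes, so the level of Bad is less certain. Bid overlaps a pseudogene and Bcl2 a long noncoding RNA gene, and neither is listed by name in the deposited table. Bad and Bcl2l1 also overlap a pseudogene each. That at Bcl2l1 was at 0 FPKM in all 6 libraries, and that at Bad is not listed by name. A microRNA gene that overlaps Bcl2 was not looked up.

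Of 17 further genes of the family or named for binding to it, 8 passed the filter, of which 1 rose, 2 fell and 5 did not pass, with a median log2 change of −0.01. The share called was 37.5%, against 43.8% of all genes tested. The largest difference was in Bnip3, an atypical BH3 protein of the mitochondrial surface that promotes mitophagy and is induced by hypoxia. It was at 47.6, 54.8 and 44.0 FPKM with PBS and at 16.4, 16.5 and 17.1 with exosomes. All exosome libraries were far below all PBS libraries, and Bnip3 fell from 48.8 ± 5.52 to 16.7 ± 0.354 FPKM (log2 change −1.49 ± 0.07, limma adjusted p = 1.15e-06). Its relative Bnip3l, also a mitophagy receptor, fell from 22.9 ± 0.641 to 19.0 ± 0.766 FPKM (log2 change −0.26 ± 0.05, limma adjusted p = 0.00247).

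Bok, a relative of the effectors, was at 7.52, 7.54 and 7.44 FPKM with PBS and at 10.4, 8.15 and 9.50 with exosomes. The exosome libraries were all higher but far apart, and Bok rose to a mean of 9.35 ± 1.13 (log2 change 0.28 ± 0.08, limma adjusted p = 0.015). That call ended without exosome replicate 1 (0.21, limma adjusted p = 0.0519) and is absent from the authors' deposited table (adjusted p = 0.489), in a range of 0.00356 to 0.489 over all alternatives. Bnip2, Bcl2l12 and Bcl2l13, besides Bak1 and Bcl2l2, did not pass. Of the 9 genes under the filter, Hrk and the 3 A1 genes were listed at 0 throughout, and Bik, Bcl2l10, Bcl2l14, Bcl2l15 and Bnipl stayed at or under 0.139 FPKM in every library.

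Downstream of the family, cytochrome c released from mitochondria assembles Apaf1 and caspase-9 into the apoptosome, which activates the executioner caspases, while IAP proteins block them. Of 21 tested genes of this stage 5 rose, 4 fell and 12 did not pass (median log2 change 0.06). The share called, 42.9%, was near the 43.8% of all genes tested. Casp6, an executioner caspase, rose from 9.30 ± 0.900 to 12.8 ± 0.242 FPKM (log2 change 0.43 ± 0.07, limma adjusted p = 0.000897). Dffa, the inhibitor of the apoptotic DNase, rose from a mean of 2.76 to 3.66 FPKM (log2 change 0.31 ± 0.06, limma adjusted p = 0.0041). Vdac2, the mitochondrial channel that binds Bak, fell from 80.0 ± 0.907 to 68.4 ± 0.0402 FPKM (log2 change −0.22 ± 0.04, limma adjusted p = 0.00155). The apoptosome genes Apaf1 and Casp9, named here for their role after their values were seen, did not pass, with log2 changes of 0.05 ± 0.06 and 0.13 ± 0.07. The authors' deposited table lists 3 genes raised and 3 lowered here. By limma 3 were raised without PBS replicate 3 or without exosome replicate 3, and 2 were lowered without PBS replicate 1 or without exosome replicate 2.

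Of 12 tested genes of death receptors, related receptors and their signalling, 6 fell, 0 rose and 6 did not pass by limma. Their median log2 change was −0.15. Casp8, whose product cleaves Bid, had a log2 change of 0.20 ± 0.08 (limma adjusted p = 0.0546). It and Fas, Fadd, Tradd, Traf2 and Ripk1 did not pass, and these were named after their values were seen. Over all genes tested 18.4% were lowered and 25.4% raised. At an unadjusted p under 0.05 limma gave 2 raised and 7 lowered, and the authors' deposited table lists 0 raised and 6 lowered. Without PBS replicate 2 or without exosome replicate 1, limma called 1 raised. Tnfrsf12a, the receptor for TWEAK, fell from 103.2 ± 9.52 to 40.9 ± 4.01 FPKM (log2 change −1.32 ± 0.08, limma adjusted p = 6.51e-06). Tnfrsf1b and Tnfrsf1a, the TNF receptors, fell by 0.48 and 0.26 on the log2 scale.

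Of 26 tested genes whose products hold, modify or destabilise Bcl-2 family proteins, 3 rose, 6 fell and 17 did not pass (median log2 change −0.05), so that 34.6% were called, against 43.8% of all genes tested. With the replicate number as a block, and likewise in the authors' deposited table, 0 of them rose, so the 3 rises depend on the setting. Rises numbered 0 without PBS replicate 3, and 1 without PBS replicate 1, exosome replicate 2 or exosome replicate 3. Pim3 and Pim1, kinases that phosphorylate Bad, fell from 12.2 ± 0.323 to 8.16 ± 1.13 FPKM (log2 change −0.54 ± 0.08, limma adjusted p = 0.000761) and from 4.92 ± 0.278 to 3.63 ± 0.404 (limma adjusted p = 0.00454). Ywhag, a 14-3-3 protein, fell from 108.5 ± 2.25 to 92.1 ± 4.06 FPKM (limma adjusted p = 0.00304). The dynein light chain genes were named for their role after their values were seen. Dynll2, whose product holds Bmf, fell by 0.17 ± 0.05 on the log2 scale (limma adjusted p = 0.0131), and Dynll1, whose product holds Bim, had a log2 change of 0.00 ± 0.06 (adjusted p = 0.98).

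Transcription factors known to act on the family, with their close regulators, moved in both directions. Of 20 tested genes 6 rose, 7 fell and 7 did not pass (median log2 change −0.06), so that 65.0% were called, against 43.8% of all genes tested. The 6 include Chac1, whose product is neither a transcription factor nor a regulator of one (log2 change 0.43 ± 0.06, limma adjusted p = 0.000399). Egr1 fell from 82.9 ± 11.5 to 18.7 ± 4.67 FPKM (log2 change −2.11 ± 0.19, limma adjusted p = 0.000312), Myc from 34.9 ± 2.62 to 23.1 ± 0.455 (adjusted p = 7.83e-05) and Mdm2, which marks p53 for degradation, from 15.1 ± 0.368 to 11.3 ± 0.561 (adjusted p = 0.000394). The FOXO genes and Trp53 were named for the motif and the p53 targets after their values were seen. Foxo1 rose from 2.83 to 4.02 FPKM (log2 change 0.39 ± 0.11, limma adjusted p = 0.018) and Foxo4 from 5.32 to 6.71 (0.29 ± 0.06, adjusted p = 0.00281), while Foxo3 was at 15.6 and 14.96 FPKM (−0.06 ± 0.05, adjusted p = 0.364). Trp53 fell by 0.24 ± 0.05 on the log2 scale (limma adjusted p = 0.00389).

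Of 25 tested p53 targets outside the family 8 fell, 5 rose and 12 did not pass, with a median log2 change of −0.04. The share called was 52.0%, against 43.8% of all genes tested. Mdm2, counted above with the transcription regulators, and Fas and Tnfrsf10b, counted with the death receptor genes, are also in this list. The number lowered was 5 without PBS replicate 1, without PBS replicate 2 or without exosome replicate 1. Those with the smallest p were Plk3, a stress kinase, which fell from 11.9 ± 0.319 to 3.81 ± 0.232 FPKM (log2 change −1.42 ± 0.06, limma adjusted p = 5.37e-07), Cdkn1a, which encodes p21, and Aen, an apoptosis-enhancing nuclease. Aen fell from 25.2 ± 0.865 to 17.7 ± 0.829 FPKM (log2 change −0.49 ± 0.05, limma adjusted p = 9.88e-05). Of the members Bax, Bbc3 and Pmaip1, each known as a p53 target, Bax fell, and Bbc3 and Pmaip1 gave no call.

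**Figure D4:**
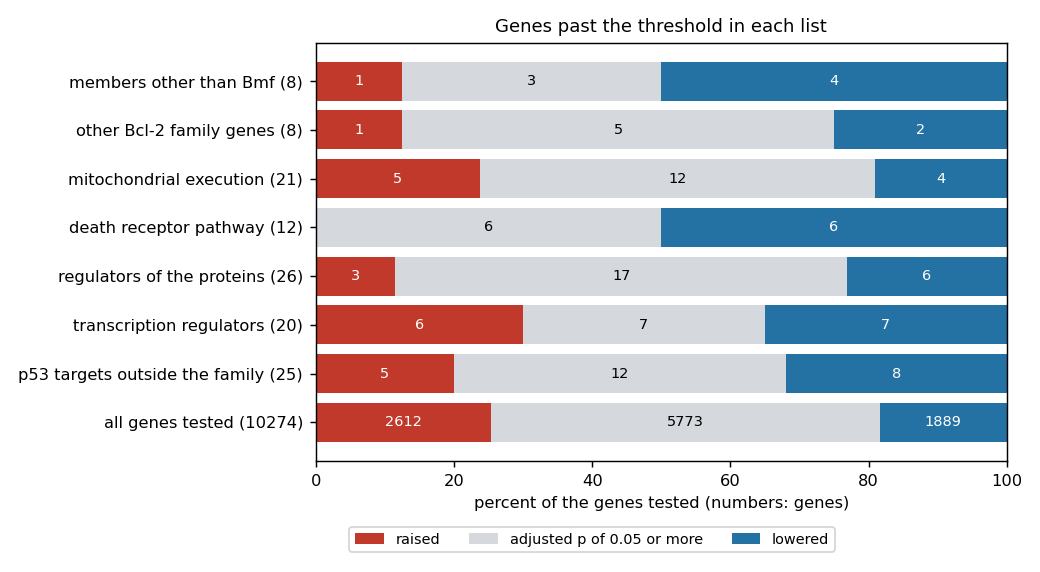
Share of the tested genes of each list (horizontal axis, percent; number tested in brackets) that were raised (red, left), lowered (blue, right) or at an adjusted p of 0.05 or more (grey). Of the 8 members other than Bmf 1 was raised and 4 lowered, beside 25.4% and 18.4% of all genes tested in the bottom bar. Some genes are counted in more than 1 list.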

How the data were processed

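Stranded mRNA libraries (TruSeq) of 6 samples were read as paired ends, per the labels' protocols. Build mm9 and the tools DESeq, HTSeq, Cufflinks, StringTie, HISAT2, Bowtie2, SAMtools and Trimmomatic appear in the submitters' processing notes, with no version or role. The authors deposited per-library expression values read here as FPKM, inferred from Cufflinks, from unequal column sums and from length (Spearman 0.61 across 8958 genes between count per FPKM and transcript length). The same table holds the authors' group means of normalized counts (a signal), a linear fold change (ratio), and DESeq p-values, per the file headers. Columns were matched to samples by sample number. Of 27 gene names turned into dates 27 were repaired by Entrez identifier, and 0 pairs of libraries were identical.

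Group was the only term in limma 3.58.1 (R 4.3.3) on log2(FPKM + 1), with trend and robust variances, two-sided, Benjamini-Hochberg adjusted over 10274 genes. A check on simulated data used a far smaller share of changed genes, all raised, so it does not bear on the share called here. The test foreseen for counts was not used, since counts per library are not among the columns. Size factors (0.923 to 1.112) were solved from the low group means. In 600 of 600 sampled genes in each of 4 ranges of the mean up to 120, in each group, exactly 1 combination of whole reads gave the deposited mean; this step was added after seeing the data.

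The members and lists were chosen with earlier results of these data known. Named genes are all members, all tested genes of the wider family, and the 3 of smallest p among those called in each other list. Apaf1, Casp8, Casp9, Chac1, Dynll1, Dynll2, Fadd, Fas, Foxo1, Foxo3, Foxo4, Ripk1, Tnfrsf10b, Tradd, Traf2 and Trp53 were named outside this rule after their values were seen. Other genes were named only as markers or as neighbours that overlap a member. Other pseudocounts, filters, scalings, variance models, a replicate block, the authors' table and leaving out each library were tried. Single values of some listed genes are not reported here.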

Additional observations from a re-analysis of the deposited data

How the results depend on the processing

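The 4 lowered members (Bid, Bax, Bcl2l1 and Mcl1) and Bcl2l11 kept their direction and their call under every alternative in which they were tested, except that Bcl2l11 was not tested with at least 5 FPKM in 3 libraries, where 0 members were raised. Leaving out 1 library at a time gave 1 to 2 members raised and 4 lowered. The log2 change of Bmf was 1.93 with a pseudocount of 0.1 and 1.91 in the authors' deposited table. Among the lists, 1 death receptor gene was raised with upper quartile scaling. Mitochondrial execution genes raised numbered 3 with at least 5 FPKM, 3 with the replicate block and 3 in the authors' table. Raised regulators of the proteins numbered 1 with median ratio scaling, 0 with the replicate block and 0 in the authors' table, and raised other family genes 0 in that table. With 1 library left out the ranges were 0 to 1 (death receptor, raised), 3 to 5 and 2 to 5 (execution, raised and lowered), 0 to 1 (other family, raised), 0 to 3 (protein regulators, raised) and 5 to 10 (p53 targets, lowered). Signs turned only for genes that did not pass: Bad at −0.02 in the authors' table and −0.02 to 0.07 with 1 library left out (below 0 without exosome replicate 1), Bak1 at 0.00 without PBS replicate 2, Bcl2l13 at −0.01 with median ratio scaling, −0.02 in the authors' table and −0.05 to 0.06 with 1 library left out (below 0 without exosome replicate 3), and Bcl2l2 at 0.02 with upper quartile scaling and −0.03 to 0.01 with 1 library left out. Deviations of same-numbered libraries correlated at −0.12, −0.02 and −0.29, and no library correlated best with its own number. No pairing by number was thus visible, though deviations from means of 3 libraries cannot exclude one. With the replicate block 2288 genes were raised and 1626 lowered, against 2612 and 1889. The members with the fewest reads were Pmaip1, with 60 over the exosome libraries and 80 over the PBS libraries, and Bbc3, with 373 and 270.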

Other observations

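The log2 fold of the authors' deposited table was lower than the log2 ratio of mean FPKM, with no pseudocount, for 9 of the 10 members, by up to 0.17 (Bbc3), and was 0.01 higher for Pmaip1. For Bax the values were −0.41 and −0.31, and for Bcl2l1 −0.86 and −0.79. The same offset ran through the table: over 10260 tested genes the median difference was −0.05 (quartiles −0.07 and −0.02), and 90.7% of genes were below 0. A small change near 0, as in Bad and Bcl2l13, can therefore differ in sign between the deposited FPKM and the deposited counts.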
